A study of Mus musculus with 12 samples.

Results

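The microRNAs (miRNAs) of E11.5 pancreatic progenitors were compared with those of E8.5 endoderm, the last and the first stage of a mouse small-RNA series. The comparison used 6 of the 12 libraries, chosen by their stage labels: 3 labelled E8.5 and 3 labelled E11.5, each per the study a separate embryo. At E8.5 the cells came from whole embryos that carried Foxa2-CreER, in which the Foxa2 locus drives a Cre that works only after tamoxifen, given to the dam at E6.5. At E11.5 they came from the dissected trunk of embryos that carried Pdx1-Cre, a Cre driven by the regulatory sequence of Pdx1, a transcription factor of the pancreas and duodenum. In both groups Cre had switched on the red reporter tdTomato, by which the living cells were sorted. Foxa2 also marks notochord and floor plate, and Pdx1-Cre marks duodenal and stomach cells beside pancreatic ones, so both sorts could hold further cell types. Stage, Cre driver, dissected region and the number in the library names changed together, and their parts in any difference below cannot be told apart. Males of the study's tracing crosses carried 1 mir-302 allele replaced by eGFP, and the mir-302 genotype of these embryos was not known here.

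A miRNA is cut from a hairpin precursor, which can give a 5p and a 3p arm, and guides Argonaute to messenger RNAs that pair with its seed, bases 2 to 8 of the arm. Arms with the same seed therefore share many of their potential targets, whichever gene they come from. Pluripotent and early embryonic cells are known for the miR-302 and miR-290 to miR-295 clusters and for the miR-17-92 clusters, while let-7 accumulates as cells differentiate, miR-375 and miR-7 are abundant in endocrine pancreas and miR-122 in liver.

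Sequences of arms that fell at E11.5 are given first, from RefSeq (GRCm38.p6), 5′ to 3′ with the seed in capitals. They were chosen among the arms with a RefSeq sequence to show the seeds that called arms shared: AAGUGCU, which arms of the chromosome 3 and chromosome 7 clusters share, CUCAAAC of the chromosome 7 cluster, AUUGCAC of the miR-92 family and ACCCUGU of miR-10.
miR-302b-3p: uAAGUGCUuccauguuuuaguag
miR-302d-3p: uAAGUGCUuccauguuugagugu
miR-294-3p: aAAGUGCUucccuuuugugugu
miR-295-3p: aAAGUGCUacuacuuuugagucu
miR-302c-3p: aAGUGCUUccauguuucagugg
miR-292a-5p: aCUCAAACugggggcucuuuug
miR-293-5p: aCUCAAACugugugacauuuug
miR-92a-3p: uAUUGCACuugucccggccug
miR-363-3p: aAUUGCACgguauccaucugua
miR-367-3p: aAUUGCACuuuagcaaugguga
miR-10a-5p: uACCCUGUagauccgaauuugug
miR-10b-5p: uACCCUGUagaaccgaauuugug
The longest run that miR-302b-3p and miR-295-3p shared was AAGUGCU, of 7 bases, and 15 of their 23 positions held the same base. The annotated 5′ end of miR-302c-3p lies 1 base further in, so that a run of 16 bases from position 2 of miR-302b-3p begins at position 1 of miR-302c-3p and its seed reads AGUGCUU. miR-10a-5p and miR-10b-5p differ at 1 position, U12A, counted from the 5′ end of miR-10a-5p.

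Arms that rose at E11.5 are shown for comparison, again among those with a RefSeq sequence, so that neither miR-375-3p nor miR-122-5p is among them. Several share a seed: GAGGUAG in let-7, GGAAGAC in miR-7, ACCCGUA in miR-99 and AAUACUG in the miR-200 arms.
let-7a-5p: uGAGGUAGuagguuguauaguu
let-7c-5p: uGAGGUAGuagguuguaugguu
let-7e-5p: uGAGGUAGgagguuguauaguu
miR-7a-5p: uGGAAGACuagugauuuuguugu
miR-7b-5p: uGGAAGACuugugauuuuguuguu
miR-99a-5p: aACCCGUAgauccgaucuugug
miR-99b-5p: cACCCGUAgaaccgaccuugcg
miR-125a-5p: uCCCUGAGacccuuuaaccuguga
miR-200b-3p: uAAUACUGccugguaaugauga
miR-200c-3p: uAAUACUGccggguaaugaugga
miR-182-5p: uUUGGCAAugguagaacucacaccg
miR-183-5p: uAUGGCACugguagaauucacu
miR-24-3p: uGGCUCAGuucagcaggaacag
miR-99a-5p, which rose, and miR-10a-5p, which fell, share the run GUAGAUCCGA of 10 bases, which begins at position 7 of miR-10a-5p and at position 6 of miR-99a-5p. The shift by 1 base leaves them with different seeds. let-7e-5p differs from let-7a-5p at 1 position, G9U, counted from the 5′ end of let-7e-5p and outside the seed.

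The deposited table held 1053 entries, 633 mature arms and 420 precursors, and library totals ranged from 386094 to 594224 counts at E8.5 and from 417743 to 1103383 at E11.5. Levels are given as CPM, counts scaled to a common library size by TMM factors. A count of 0 allowed up to 3 counts, which is between 4.34 and 7.75 CPM for E8.5 libraries and between 2.74 and 6.84 CPM for the other stage. The counts are reads after PCR, so that intervals from them cover counting error only. In each library the number of entries per count peaked a second time, at 47.9 to 72.4 counts at E8.5 and 30.2 to 123 counts at E11.5, and entries at or under that level rest on little material. Libraries of 1 stage differed by more than sampling noise, and their mean distance on the log2 scale over 571 entries was 47.1 within E8.5, 53.9 within E11.5 and 72.5 between the stages.

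Of the 571 entries that passed the filter on low counts, 66 were called by the edgeR quasi-likelihood test (11.6%, adjusted p under 0.05). Of these, 30 were higher at E11.5 (5.25% of those tested) and 36 were lower (6.3%). The median log2 fold change was -7.90 among the called lower entries and 2.30 among the called higher ones, so the fitted losses were mostly larger than the fitted gains. Of the 36 entries called lower, 21 held at most 10 counts in each E11.5 library, while 3 of the 30 called higher held at most 10 counts in each E8.5 library. Mature arms made up 57 of the calls (15.1% of the 377 tested) and precursors 9 (4.64% of the 194 tested). Of the mature arms 26 were called higher and 31 lower, the background for the lists of arms below. For all 66 called entries the values of one stage lay wholly above those of the other, against 38.5% of the entries tested. All tested entries had a median log2 fold change of -0.07, which RLE scaling shifted by -0.14 and library size alone by -0.16. Arms given below although they were neither called nor the most abundant of their list or stage were named after their values were seen. The p-values rest on a spread estimated from all 12 libraries of the series, in which differences between embryos and technical noise cannot be told apart.

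**Figure D1:**
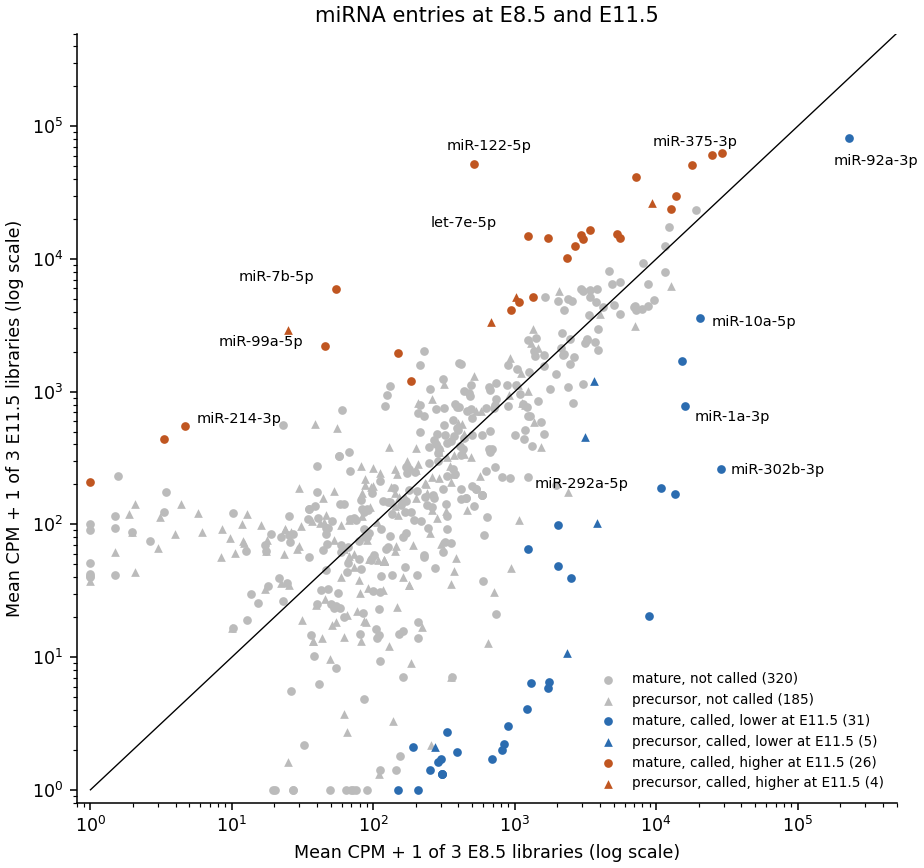
Mean CPM + 1 of each tested entry at E8.5 (x axis) and E11.5 (y axis), both on log scales, with circles for mature arms, triangles for precursors and the line of equal levels. The 36 called lower entries (blue) reach down to the bottom edge, where E11.5 libraries hold no counts, while most of the 30 called higher entries (orange) were already above 100 CPM at E8.5.

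The called entries made up a large part of each library. Those called lower took 40.97% ± 0.295 of all counts at E8.5 and 9.06% ± 1.67 at E11.5 (SD, n = 3 each), and those called higher took 16.3% ± 0.703 and 51.8% ± 0.0971. These sums follow from how the entries were picked and are given as a description. Without miR-92a-3p, the 35 other entries called lower took 15.96% of counts at E8.5 and 0.89% at E11.5.

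The miR-302 cluster, which also holds miR-367 (chromosome 3, 127545228 to 127545807, plus strand, in an intron of Larp7 on the opposite strand; GENCODE annotation, GRCm38) was nearly gone at E11.5. All 8 of its arms that passed the filter were called lower, with a median log2 fold change of -8.49 against -0.07 over all entries. Over all 377 mature arms tested, 31 were called lower. Of the 8, miR-302a-5p, miR-302b-5p, miR-302c-3p, miR-302d-5p and miR-367-3p held under 10 counts in every E11.5 library. By the filter these arms could be called only lower. The most abundant arm of the cluster, miR-302b-3p, had 35534, 30469.8 and 20070.1 CPM in the E8.5 libraries and 207, 209 and 370.4 CPM in the E11.5 libraries (log2 fold change -6.77, SE 0.65, adjusted p = 1.48e-07). Its lowest E8.5 library was far above its highest E11.5 library, and the means differed 109-fold. miR-302d-3p had 16173, 15908 and 8438 CPM in the E8.5 libraries and 219, 40.2 and 248 CPM in the E11.5 libraries (log2 fold change -6.32, SE 0.81, adjusted p = 7.1e-06). Both replicates 1 and 2 of E8.5 exceeded replicate 3 for these arms, by less than the gap between the stages. miR-302a-3p had 10112, 11085 and 5303 CPM in the E8.5 libraries and 11.4, 19.2 and 27.7 CPM in the E11.5 libraries (log2 fold change -8.79, SE 0.90, adjusted p = 3.18e-07), and its E11.5 libraries held 5, 21 and 23 counts. Residual counts at E11.5 were thus mainly miR-302b-3p (91, 229 and 308 counts) and miR-302d-3p (96, 44 and 206 counts).

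The other arms of the cluster were near or at 0 in the E11.5 libraries, where a fold rests on few counts. miR-302c-3p summed to 2012 counts over the E8.5 libraries and 7 over the E11.5 libraries, a ratio of 410.0 with a 95% counting interval of 199 to 1021. Its call was lost with counts under 10 set to 0 (adjusted p = 0.0606). miR-302a-5p summed to 1474 and 6 counts, a ratio of 350.4 with a 95% counting interval of 161 to 956, and miR-302d-5p to 375 and 1 counts, a ratio of 535 with a 95% counting interval of 95.4 to 21182. miR-367-3p, the only arm of the cluster with the miR-92 seed, had 121, 119 and 68 counts at E8.5 and none at E11.5, at least 46.6-fold lower against 3 counts per library, and miR-302b-5p was at least 33.98-fold lower on the same basis. miR-302d-5p, miR-367-3p and miR-302b-5p had between 21 and 196 counts per E8.5 library, around the second count level. Their calls were lost without any single one of the 6 libraries of E8.5 and E11.5, and that of miR-302b-5p also without E9.5 replicate 3 (adjusted p = 0.0504 to 0.136). Among the precursor entries, mir-302b fell from 2338 ± 1099 CPM to 9.66 ± 9.42 CPM and mir-302a from 3795 ± 520.3 CPM to 101 ± 165 CPM. The precursor mir-302d had 3 counts in all at E11.5, a ratio of 232 with a 95% counting interval of 79.1 to 1131, and lost its call without any single one of the 6 libraries or of the 3 E9.5 libraries and without E10.5 replicate 3 (adjusted p = 0.0517 to 0.152).

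The miR-290 to miR-295 cluster (chromosome 7, 3218626 to 3220841, plus strand; the Mir291a to Mir295 hairpins overlap exons of Nlrp12 on the opposite strand), which embryonic stem cells are known for, was also nearly gone. All 11 arms tested were called lower, against 31 of all 377 mature arms, with a median log2 fold change of -8.13. Of the 11, miR-290a-5p, miR-291a-3p, miR-291a-5p, miR-291b-5p, miR-293-5p, miR-295-3p and miR-295-5p held under 10 counts in every E11.5 library. By the filter they could be called only lower. Its summed level ranged over 22469 to 23084 CPM across the E8.5 libraries and 146 to 584 CPM across the E11.5 libraries. The sum of the miR-302 cluster's arms was wider at E8.5, 35878 to 65409 CPM, and at E11.5 it was 274 to 655 CPM. miR-292a-5p, the most abundant, had 10793, 10522 and 11180.1 CPM in the E8.5 libraries and 41.03, 194 and 325 CPM in the E11.5 libraries (log2 fold change -5.85, SE 0.78, adjusted p = 1.05e-05). The 3 E8.5 values lay within a narrow band, whereas the E11.5 values spread over almost an order of magnitude. miR-293-5p fell to 6.84, 3.66 and 6.01 CPM (log2 fold change -8.25, adjusted p = 0.000739), miR-291b-5p to 4.56, 1.83 and 9.62 CPM (log2 fold change -7.86, adjusted p = 0.00369) and miR-293-3p to 91.2, 13.7 and 10.8 CPM (log2 fold change -6.03, adjusted p = 0.00165). miR-290a-5p, miR-291a-5p and miR-295-3p held 4, 3 and 2 counts in all at E11.5, against 1289, 1441 and 1150 at E8.5. For miR-295-3p that is a ratio of 820.2 with a 95% counting interval of 227 to 6780.4.

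The calls of the remaining 4 members were lost when single libraries were left out. With counts under 10 set to 0, those of miR-290a-5p, miR-291b-5p and miR-293-3p were lost as well (adjusted p = 0.0636 to 0.0759). miR-292a-3p had 2.28, 0.915 and 139.5 CPM at E11.5, nearly all of it in replicate 3, against 2373, 2532 and 1173 CPM at E8.5 (log2 fold change -5.40, SE 1.68, adjusted p = 0.039). miR-294-3p had no counts in E11.5 replicate 1 and 103 and 90.2 CPM in the others, against 1036, 1155 and 1512 CPM at E8.5 (log2 fold change -4.24, SE 1.34, adjusted p = 0.041). miR-291a-3p and miR-295-5p each held 2 counts in all at E11.5. The calls of miR-291a-3p and miR-294-3p were lost without any single one of the 6 libraries, that of miR-292a-3p without any but E11.5 replicate 3, and that of miR-295-5p without any but E8.5 replicate 2 (adjusted p = 0.0546 to 0.14).

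When counts were summed over arms with 1 seed, 252 seed families passed the filter and 28 were called (11.1%), of which 15 rose and 13 fell. The AAGUGCU family joins miR-302b-3p and miR-302d-3p with miR-291a-3p, miR-294-3p and miR-295-3p. miR-302a-3p was not among the arms with a RefSeq sequence, so no seed sum held its counts. The AAGUGCU sum fell from 43527 ± 10933 CPM to 506 ± 206 CPM (log2 fold change -6.42, SE 0.57, adjusted p = 2.04e-08). At E8.5 miR-302b-3p made up 62.8% to 66.1% of this sum and miR-302d-3p 27.3% to 32.8%, so the chromosome 7 arms gave the smaller part of it. By contrast the CUCAAAC family of miR-290a-5p, miR-292a-5p and miR-293-5p came from chromosome 7 alone and fell from 13210.5 ± 633 CPM to 203 ± 152 CPM (log2 fold change -6.02, SE 0.75, adjusted p = 3.9e-06). The AUCAAAG family of miR-291a-5p and miR-291b-5p fell from 2097 ± 694 CPM to 6.49 ± 4.22 CPM (log2 fold change -8.26, SE 1.56, adjusted p = 0.000716).

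**Figure D2:**
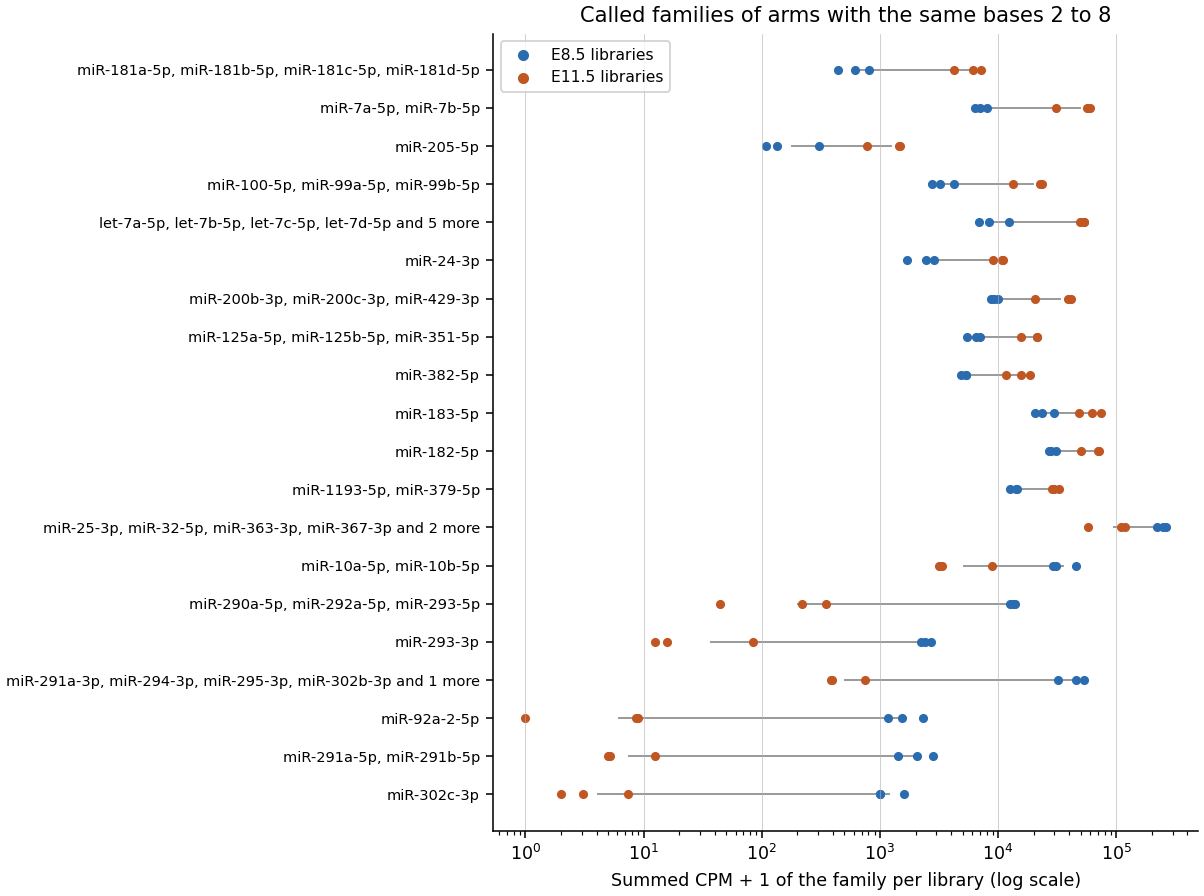
Summed CPM + 1 per library (x axis, log scale) of the 20 called seed families that reached 1000 CPM at the stage where they were higher, named by their members, with blue points for the 3 E8.5 libraries, orange points for the 3 E11.5 libraries and grey lines between the means. Families are ordered by log2 fold change, and in each of them the 2 groups of points do not overlap.

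miR-92a-3p was the most abundant mature arm at both stages and fell, by less than the cluster arms above. It had 207145, 259300.0 and 223138 CPM in the E8.5 libraries and 55723, 97914 and 90727 CPM in the E11.5 libraries (log2 fold change -1.50, SE 0.19, adjusted p = 4.51e-06). Its share of all counts went from 25.002% ± 1.70 to 8.17% ± 2.04 (SD, n = 3 each). The whole AUUGCAC family, which also holds miR-25-3p, miR-32-5p, miR-92b-3p, miR-363-3p and miR-367-3p, fell from 244305 ± 21047 CPM to 95195 ± 33197 CPM (log2 fold change -1.36, SE 0.22, adjusted p = 0.000148). miR-25-3p, from the third paralogous cluster and not called, had 8410.0, 9891 and 7759 CPM in the E8.5 libraries and 4988, 6635 and 7765 CPM in the E11.5 libraries, and its share of the family was 3.24% to 3.76% at E8.5 and 6.09% to 7.96% at E11.5.

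miR-92a-3p has 2 genes, one in the cluster on chromosome 14 (115043671 to 115044506, plus strand, in Mir17hg) and one in the cluster on chromosome X (52741693 to 52742567, minus strand), and reads of the shared arm cannot be split between them. Of the 7 arms tested in the X cluster, 4 were called lower, miR-92a-3p included, against 31 of all 377 mature arms. miR-92a-2-5p, the other arm of the chromosome X hairpin, had 1178, 2472 and 1489 CPM in the E8.5 libraries and 0, 7.32 and 7.22 CPM in the E11.5 libraries (log2 fold change -8.30, SE 1.53, adjusted p = 0.000653). Every E11.5 library was near 0 while the E8.5 libraries exceeded 1000 CPM. The precursor mir-92a-2 had 2681, 3438 and 3233 CPM in the E8.5 libraries and 285, 713 and 366.8 CPM in the E11.5 libraries (log2 fold change -2.78, SE 0.85, adjusted p = 0.0357). miR-363-3p had 1816, 2276 and 1979 CPM in the E8.5 libraries and 38.8, 3.66 and 249 CPM in the E11.5 libraries (log2 fold change -4.37, SE 1.41, adjusted p = 0.0463), and miR-20b-5p summed to 570 counts at E8.5 and 5 at E11.5, a ratio of 163 with a 95% counting interval of 69.3 to 503. Both miR-92a-2-5p and miR-20b-5p held under 10 counts in every E11.5 library and by the filter could be called only lower. The X-cluster arms miR-106a-5p and miR-363-5p were not called. Neither was miR-19b-3p, which both clusters encode (log2 fold change -1.34, adjusted p = 0.807). miR-106a-5p had 645, 310.0 and 106 CPM in the E8.5 libraries and 0, 122 and 92.6 CPM in the E11.5 libraries (log2 fold change -2.30, adjusted p = 0.616), and miR-363-5p had 827, 734 and 266 CPM in the E8.5 libraries and 0, 1.83 and 245 CPM in the E11.5 libraries (log2 fold change -2.88, adjusted p = 0.424). The stages overlapped for miR-106a-5p and miR-19b-3p and not for miR-363-5p. The calls of mir-92a-2 and miR-20b-5p were lost without any single one of the 6 libraries (mir-92a-2 also without E10.5 replicate 1, miR-20b-5p also without E9.5 replicates 2 and 3), and that of miR-363-3p without any but E11.5 replicate 3 (adjusted p = 0.0548 to 0.162).

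Of the arms listed for the 3 paralogous miR-17-92 clusters, 20 were tested, of which 4 were called lower and none higher. Over all 377 mature arms tested, 31 were called lower. The median log2 fold change of the list was -1.95. Arms found only in the chromosome 14 cluster were not called. miR-17-5p, whose seed AAAGUGC belongs to a family known to promote the cell cycle, had 1211, 1170.2 and 1619 CPM in the E8.5 libraries and 469.6, 479 and 225 CPM in the E11.5 libraries (log2 fold change -1.77, adjusted p = 0.523). miR-20a-5p, with the same seed, had 1559.9, 1480.2 and 1546 CPM in the E8.5 libraries and 777, 681 and 315 CPM in the E11.5 libraries (log2 fold change -1.37, adjusted p = 0.616). The stages did not overlap for either arm, which is the case for 38.5% of all entries. Whether the 2 clusters differed in their change was not tested.

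miR-10a-5p (Mir10a, chromosome 11, 96317165 to 96317274, plus strand, between genes) and miR-10b-5p (Mir10b, chromosome 2, 74726070 to 74726137, plus strand, in introns of Hoxd3 and Hoxd4), which accompany the Hox genes of the body axis, also fell. miR-10a-5p had 16666, 19230.0 and 25174 CPM in the E8.5 libraries and 5067, 2587 and 3034 CPM in the E11.5 libraries (log2 fold change -2.51, SE 0.50, adjusted p = 0.00125). miR-10b-5p had 12495, 13580.3 and 19333 CPM in the E8.5 libraries and 4662, 310.1 and 168 CPM in the E11.5 libraries (log2 fold change -3.14, SE 0.84, adjusted p = 0.0163), and this call was lost without E8.5 replicate 3 (adjusted p = 0.0826). In E11.5 replicate 1 miR-10b-5p was far higher than in replicates 2 and 3. The same library stood apart for other Hox-cluster arms, which were chosen after their values were seen. miR-196a-5p had 3479, 3.66 and 10.8 CPM in the E11.5 libraries and 199, 798 and 1193 CPM at E8.5, and miR-196b-5p had 809, 1.83 and 0 and 1.73, 0 and 507 CPM. The Hox-cluster list as a whole had 7 arms tested, 2 called lower and none higher, against 31 of all 377 mature arms called lower. Its median log2 fold change was -2.51, and its sum was 30963 to 49191 CPM at E8.5 and 3105 to 15077 CPM at E11.5.

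miR-1a-3p, a miRNA of heart and skeletal muscle, was among the 8 most abundant arms at E8.5 and fell. It had 26399, 15554 and 6282 CPM in the E8.5 libraries and 609, 279.9 and 1461 CPM in the E11.5 libraries (log2 fold change -4.36, SE 0.86, adjusted p = 0.00115). The E8.5 libraries varied widely, yet the lowest of them lay above the highest E11.5 library. Of the 8 arms listed for muscle and heart, miR-1a-3p alone passed the filter. miR-133a-3p had 75, 1 and 1 counts at E8.5 and none at E11.5, and miR-206-3p had 10, 2 and 2 counts at E8.5 and 106, 0 and 208 at E11.5. The list summed to 6286 to 26636 CPM at E8.5 and 281 to 1711 CPM at E11.5. In bulk samples fewer cells of a type and less RNA per cell cannot be told apart.

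**Figure D3:**
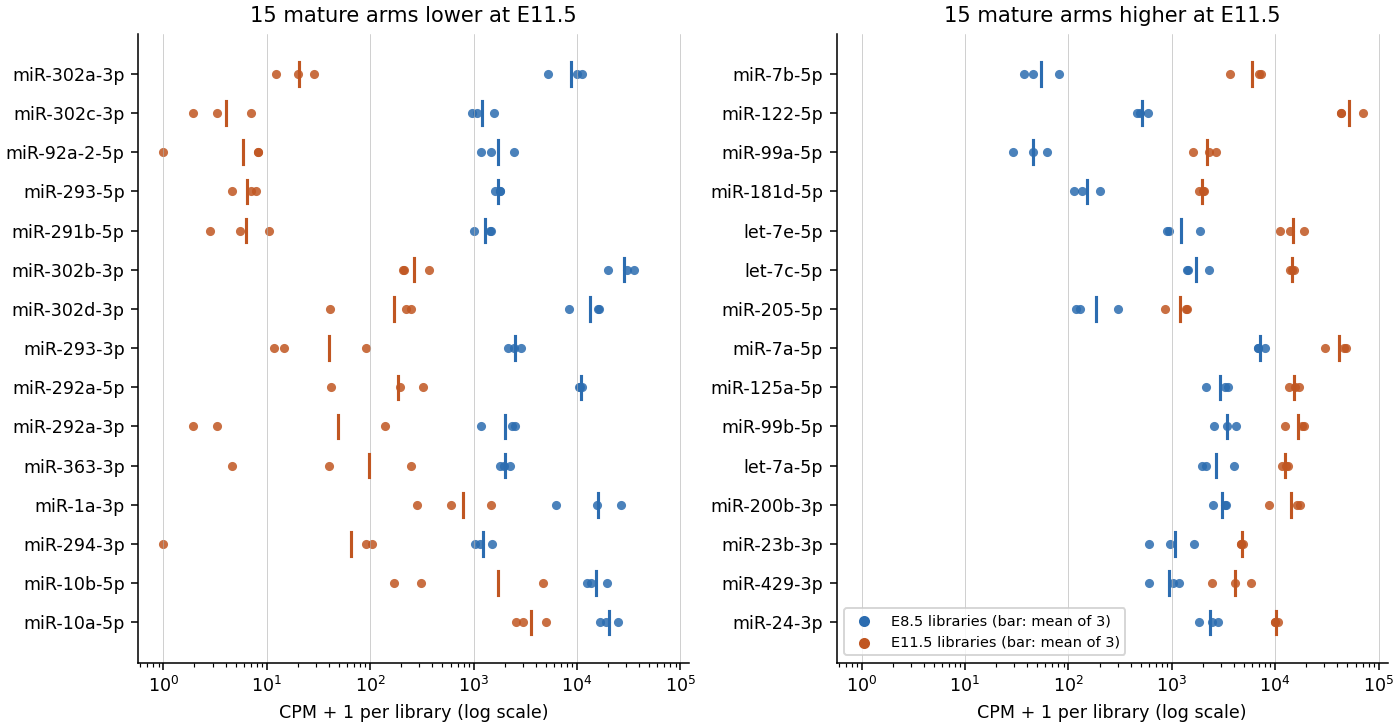
CPM + 1 in each library (x axis, log scale) of the 15 mature arms called lower and the 15 called higher at E11.5 with the largest log2 fold changes among those that reached 1000 CPM, ordered by that change. Each dot is 1 library and each bar the mean of 3. E8.5 (blue) and E11.5 (orange) dots are apart in every line.

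Among the arms called higher were miR-375-3p, miR-7a-5p and miR-7b-5p, of the pancreatic and endocrine list. miR-375-3p, known for its role in beta cells, had 19537, 17869 and 16224 CPM in the E8.5 libraries and 42477, 63008 and 47562 CPM in the E11.5 libraries (log2 fold change 1.51, SE 0.25, adjusted p = 0.000203). It was thus already abundant in the E8.5 libraries, which lay close together. miR-7a-5p had 7962, 6819.9 and 6755 CPM in the E8.5 libraries and 30518, 48235 and 46349 CPM in the E11.5 libraries (log2 fold change 2.54, SE 0.28, adjusted p = 7.3e-07), a 5.81-fold difference of the means. miR-7b-5p, from a gene of its own on chromosome 17 (56242988 to 56243098, plus strand, between genes), had 79.6, 36.2 and 44.8 CPM in the E8.5 libraries and 3622, 7032 and 7255 CPM in the E11.5 libraries (log2 fold change 6.79, SE 0.76, adjusted p = 8.62e-07). At E8.5 it rested on 46, 14 and 31 counts. Its share of the miR-7 seed family went from 0.528% to 0.989% of counts at E8.5 to 10.6% to 13.5% at E11.5. The family sum rose from 7130.2 ± 811 CPM to 49107 ± 15682 CPM (log2 fold change 2.78, SE 0.32, adjusted p = 1.56e-06).

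The precursors of miR-7a rose as well. mir-7a-1, in an intron of Hnrnpk (chromosome 13, 58392779 to 58392886, minus strand), had 1166, 1098 and 788 CPM in the E8.5 libraries and 4017, 5541 and 5898 CPM in the E11.5 libraries (log2 fold change 2.34, SE 0.53, adjusted p = 0.00333). mir-7a-2, between genes on chromosome 7 (78888277 to 78888373, plus strand), had 591, 948 and 487 CPM in the E8.5 libraries and 2571, 3447 and 4077 CPM in the E11.5 libraries (log2 fold change 2.32, SE 0.66, adjusted p = 0.0228), and its call was lost without E8.5 replicates 1 and 3 and E11.5 replicates 2 and 3 (adjusted p = 0.0597 to 0.11). Of the 6 tested arms listed as pancreatic and endocrine, 3 were called higher and none lower (median log2 fold change 1.22). Over all 377 mature arms tested, 26 were called higher. miR-148a-3p, abundant in adult pancreas, was not called and had 1914, 1289 and 1616 CPM in the E8.5 libraries and 1420.1, 1374 and 1896 CPM in the E11.5 libraries. miR-217-5p, an arm of the adult exocrine pancreas, did not pass the filter. It had no counts in the E8.5 libraries and 107, 0 and 47 counts in the E11.5 libraries.

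miR-122-5p, the most abundant miRNA of hepatocytes, showed the smallest adjusted p of all entries. It had 593, 491 and 463 CPM in the E8.5 libraries and 69956, 43357 and 43118 CPM in the E11.5 libraries (log2 fold change 6.66, SE 0.37, adjusted p = 4.36e-12), a 101-fold difference of the means, and was among the 8 most abundant arms at E11.5. Its precursor mir-122 rose from 24.1 ± 13.7 CPM to 2911 ± 455 CPM (log2 fold change 6.89, SE 0.95, adjusted p = 1.66e-05). Of the 3 tested arms of the hepatic and intestinal list it was the 1 called. miR-194-5p, of intestinal epithelium and liver, had 96.8, 74.9 and 5.78 CPM in the E8.5 libraries and 472, 984 and 729 CPM in the E11.5 libraries (log2 fold change 3.62, adjusted p = 0.0644). miR-192-5p had 27.7, 0 and 0 CPM in the E8.5 libraries and 269, 95.1 and 1.203 CPM in the E11.5 libraries (log2 fold change 3.67, adjusted p = 0.523), and both had higher means at E11.5 without passing the test. The list summed to 468 to 718 CPM at E8.5 and 44182 to 70734 CPM at E11.5, where miR-122-5p made up nearly all of it.

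Called let-7 arms rose, as did miR-99b-5p, miR-125a-5p and miR-99a-5p, which are encoded beside let-7e or let-7c. Of the miR-99/100 and miR-125 list, miR-100-5p and miR-125b-5p were not called (adjusted p = 0.0501 and 0.128). let-7e-5p had 944, 1873 and 902 CPM in the E8.5 libraries and 19179.9, 11256 and 14056 CPM in the E11.5 libraries (log2 fold change 3.58, SE 0.49, adjusted p = 1.49e-05). It shares a cluster with miR-99b and miR-125a (chromosome 17, 17830188 to 17830879, plus strand, hairpins within Spaca6). miR-99b-5p had 4166, 3431 and 2566 CPM in the E8.5 libraries and 12414, 18945 and 18272 CPM in the E11.5 libraries (log2 fold change 2.29, SE 0.41, adjusted p = 0.000422), and miR-125a-5p had 3495, 3242 and 2122 CPM in the E8.5 libraries and 13499, 15463 and 16852 CPM in the E11.5 libraries (log2 fold change 2.37, SE 0.48, adjusted p = 0.00146). All 3 lead arms of this cluster were called, and their libraries did not overlap. A second cluster (chromosome 16, 77598936 to 77599750, plus strand, in Mir99ahg) also held called arms. There miR-99a-5p had 44.96, 28.4 and 60.7 CPM in the E8.5 libraries and 1614, 2282 and 2688 CPM in the E11.5 libraries (log2 fold change 5.602, SE 1.16, adjusted p = 0.00165). let-7c-5p, which a second gene on chromosome 15 also encodes, had 1411, 2284 and 1436 CPM in the E8.5 libraries and 14461, 13914 and 15153 CPM in the E11.5 libraries (log2 fold change 3.08, SE 0.45, adjusted p = 3.77e-05). let-7a-5p had 1939, 3955 and 2141 CPM in the E8.5 libraries and 13417, 11596 and 12725 CPM in the E11.5 libraries (log2 fold change 2.23, SE 0.47, adjusted p = 0.00192), and let-7f-5p had 1422, 1581 and 1034 CPM in the E8.5 libraries and 5389, 5664 and 4400.3 CPM in the E11.5 libraries (log2 fold change 1.94, SE 0.51, adjusted p = 0.0152), a call that was lost without E8.5 replicate 3 (adjusted p = 0.0947).

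Not every let-7 arm passed the test. Of the 9 tested, 4 were called higher and none lower, against 26 of all 377 mature arms called higher. The median log2 fold change of the 9 was 1.94. let-7b-5p had 1582, 2891 and 317 CPM in the E8.5 libraries and 2134, 1476 and 2016 CPM in the E11.5 libraries (log2 fold change 0.23, adjusted p = 0.917), and let-7d-5p had 329, 274 and 1.45 CPM in the E8.5 libraries and 356, 173 and 4.81 CPM in the E11.5 libraries (log2 fold change -0.18, adjusted p = 0.971). For both arms the stages overlapped. Within the seed family, which rose from 9177 ± 2826 CPM to 51959 ± 2335 CPM (log2 fold change 2.501, SE 0.32, adjusted p = 5.56e-06), let-7e-5p made up 11.3% to 14.2% of counts at E8.5 and 24.8% to 33.01% at E11.5. let-7b-5p made up 4.74% to 21.9% and then 3.25% to 3.95%. Near-identical let-7 arms can share reads, so that the split between them is uncertain.

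The miR-99/100 seed family ACCCGUA rose from 3395 ± 739 CPM to 19836 ± 5736 CPM (log2 fold change 2.55, SE 0.41, adjusted p = 0.000143), while the miR-10 family ACCCUGU fell from 35136 ± 9270.3 CPM to 5124 ± 3245 CPM (log2 fold change -2.78, SE 0.51, adjusted p = 0.000541). At E8.5 the miR-10 sum was the higher of the pair and at E11.5 the miR-99/100 sum was. In the CCCUGAG family, miR-125a-5p took 39.7% to 49.2% of counts at E8.5 and 77.9% to 83.6% at E11.5. miR-351-5p, named after its values were seen, took 48.3% to 52.2% and then 10.46% to 16.4%. The sum of this family rose from 6367 ± 798 CPM to 19387 ± 3391 CPM (log2 fold change 1.61, SE 0.38, adjusted p = 0.00542), and its call was lost without E11.5 replicate 2 (adjusted p = 0.0669).

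Epithelial miRNAs of the miR-200 family, which maintain epithelial identity by repressing Zeb1 and Zeb2, rose in part. miR-200b-3p had 2499, 3338 and 3285 CPM in the E8.5 libraries and 8772, 17353 and 16337 CPM in the E11.5 libraries (log2 fold change 2.22, SE 0.42, adjusted p = 0.000841). miR-200c-3p, from a separate locus on chromosome 6 (124718322 to 124718390, minus strand), had 5581, 6373 and 4603 CPM in the E8.5 libraries and 11446, 16398 and 15066 CPM in the E11.5 libraries (log2 fold change 1.37, SE 0.37, adjusted p = 0.0166). miR-429-3p had 1174, 1020.4 and 606 CPM in the E8.5 libraries and 2457, 4099.6 and 5775 CPM in the E11.5 libraries (log2 fold change 2.14, SE 0.66, adjusted p = 0.0363), and miR-205-5p, of stratified epithelia, had 303, 116 and 129 CPM in the E8.5 libraries and 850.3, 1357 and 1389 CPM in the E11.5 libraries (log2 fold change 2.71, SE 0.88, adjusted p = 0.0467). All 9 arms tested from the epithelial list had positive log2 fold changes, 4 of them called (median 1.89), against 26 of all 377 mature arms called higher. The call of miR-200c-3p was lost without E8.5 replicates 1 and 3 and E11.5 replicates 2 and 3, that of miR-429-3p without any of the 6 libraries but E11.5 replicate 1, and that of miR-205-5p without any of the 6 or any of the 3 E10.5 libraries (adjusted p = 0.0542 to 0.181). The sum over miR-200b-3p, miR-200c-3p and miR-429-3p, which share the seed AAUACUG, was called in all 12 fits that left out 1 library (log2 fold change 1.85, SE 0.32, adjusted p = 0.000347).

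The cluster of miR-183, miR-96 and miR-182 (chromosome 6, 30165918 to 30169737, minus strand, between genes), known from sensory and neuroendocrine cells, gave some of the most abundant arms at both stages. miR-182-5p had 26999, 30323 and 30234 CPM in the E8.5 libraries and 55429, 64252 and 67789 CPM in the E11.5 libraries (log2 fold change 1.10, SE 0.21, adjusted p = 0.000739), and miR-183-5p had 20806, 25084 and 28766 CPM in the E8.5 libraries and 52575, 57886 and 70868 CPM in the E11.5 libraries (log2 fold change 1.28, SE 0.24, adjusted p = 0.000812). The means differed 2.14-fold and 2.43-fold, and replicates of a stage lay close together. The precursor entry mir-183 rose from 9413 ± 1132 CPM to 26458 ± 3309 CPM (log2 fold change 1.49, SE 0.29, adjusted p = 0.000951). miR-96-5p, encoded between them, was not called and had 263, 173 and 432 CPM in the E8.5 libraries and 328, 539 and 248 CPM in the E11.5 libraries (log2 fold change 0.36, adjusted p = 0.917).

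In the imprinted Dlk1-Dio3 region on chromosome 12, whose maternal allele gives one of the largest miRNA clusters of the mouse, 68 arms were tested. Of these, 3 were called higher and none lower, a share below that called higher of all entries (5.25%) and of mature arms (26 of 377). The median log2 fold change was 0.64, with 53 positive and 15 negative. miR-379-5p had 12718, 15332 and 13602 CPM in the E8.5 libraries and 35592, 27184 and 27266 CPM in the E11.5 libraries (log2 fold change 1.11, SE 0.26, adjusted p = 0.00473), and miR-382-5p had 5339, 5174 and 5225 CPM in the E8.5 libraries and 20254, 14448 and 11191 CPM in the E11.5 libraries (log2 fold change 1.54, SE 0.34, adjusted p = 0.00272). miR-409-3p had 11203, 15068 and 11991 CPM in the E8.5 libraries and 28676, 21879 and 21077 CPM in the E11.5 libraries (log2 fold change 0.90, SE 0.29, adjusted p = 0.047), and its call was lost without any of the 6 libraries or E10.5 replicate 3 (adjusted p = 0.0613 to 0.146). Summed over the list, the region reached 86658 to 101673 CPM at E8.5 and, at E11.5, 137833 to 201469 CPM. The Sfmbt2 cluster, in an intron of the imprinted gene Sfmbt2, had 20 arms tested and none called (median -1.51), where 15.1% of all mature arms tested were. The pairs miR-466a-3p and miR-466e-3p, miR-466c-3p and miR-466p-3p, miR-669a-3p and miR-669o-3p, and miR-669a-5p and miR-669p-5p each had the same counts in all libraries. The arms are thus fewer measurements than their number. The most abundant arm of the cluster, miR-669c-5p, had 1935, 1759 and 2936 CPM in the E8.5 libraries and 2086, 2128 and 1533 CPM in the E11.5 libraries.

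miR-24-3p, encoded in 2 miR-23/27/24 clusters, had 2449, 1813 and 2782 CPM in the E8.5 libraries and 9971, 9984 and 10573 CPM in the E11.5 libraries (log2 fold change 2.12, SE 0.37, adjusted p = 0.000382). miR-23b-3p, of the chromosome 13 cluster, had 1638, 958 and 606 CPM in the E8.5 libraries and 4844, 4635 and 4703 CPM in the E11.5 libraries (log2 fold change 2.15, SE 0.57, adjusted p = 0.015), and its call was lost without E8.5 replicates 2 and 3 and E11.5 replicate 2 (adjusted p = 0.0597 to 0.0872). Both arms had E11.5 values within a narrow band. miR-181d-5p, in an intron of the germ-cell gene Nanos3 (chromosome 8, 84178716 to 84178787, minus strand), had 112, 201 and 134 CPM in the E8.5 libraries and 1999, 1844 and 2056 CPM in the E11.5 libraries (log2 fold change 3.72, SE 1.02, adjusted p = 0.0192), with the call lost without any of the E8.5 libraries and without E11.5 replicate 2 (adjusted p = 0.0506 to 0.0939). The miR-181 seed family ACAUUCA rose from 620.0 ± 180.0 CPM to 5837 ± 1461 CPM (log2 fold change 3.23, SE 0.71, adjusted p = 0.003).

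A pair of arms known from mesenchyme rose. miR-214-3p summed to 5 counts over the E8.5 libraries and had 276, 285 and 622 counts at E11.5, a ratio of 166 with a 95% counting interval of 70.9 to 512. miR-199a-5p, whose Mir199a-2 gene lies with Mir214 in Dnm3os (chromosome 1, 162217814 to 162223477, plus strand), had no counts at E8.5 and 158, 166 and 90 at E11.5, at least 35.9-fold higher against 3 counts per library. The call of miR-214-3p was lost without any E8.5 library and without E11.5 replicates 1 and 3, and that of miR-199a-5p without any E8.5 library (adjusted p = 0.0554 to 0.113). The other arm, miR-199a-3p, was not called and had 567, 785 and 808 CPM in the E8.5 libraries and 1384, 538 and 438 CPM in the E11.5 libraries (log2 fold change 0.13, adjusted p = 0.971). Of the 8 arms tested from the mesenchymal list, 2 were called higher and none lower (median -0.42), against 26 of all 377 mature arms called higher. The list summed to 7464 to 13865 CPM at E8.5 and 4315 to 9544 CPM at E11.5. Its most abundant arm, miR-143-3p, was not called and had 12573, 7701 and 5779 CPM in the E8.5 libraries and 5530.1, 2827 and 5003 CPM in the E11.5 libraries. The part of other cells of the sort in these differences was not tested.

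Among the 13 tested arms of the neural, endothelial, erythroid and leukocyte lists 1 was called, where 15.1% of all mature arms tested were. The neural list had 6 arms tested and 1 called lower, miR-219a-2-3p, an arm known from brain and oligodendrocytes, with 631 counts over the E8.5 libraries and 3 over the E11.5 libraries, a ratio of 300.0 with a 95% counting interval of 102 to 1459. Its call was lost without E8.5 replicates 2 and 3 and E11.5 replicates 1 and 3 (adjusted p = 0.0888 to 0.13). The defining arm miR-124-3p had 79, 0 and 136 counts at E8.5 and 0, 0 and 1 at E11.5, and the most abundant, miR-218-5p, had 3469, 3759 and 1932 CPM in the E8.5 libraries and 445, 1319 and 1666 CPM in the E11.5 libraries (log2 fold change -1.42, adjusted p = 0.338). The endothelial arm miR-126a-3p had 2177, 1749 and 1986 CPM in the E8.5 libraries and 34.2, 135 and 423 CPM in the E11.5 libraries and narrowly missed the threshold (log2 fold change -3.31, SE 1.10, adjusted p = 0.0542), and none of the 4 endothelial arms tested was called. None of 2 erythroid and 1 leukocyte arms was called. miR-451a of red cells had at most 2 counts in any of the 6 libraries and miR-223-3p of myeloid cells at most 1, while miR-486a-5p had 327, 710.4 and 158 CPM in the E8.5 libraries and 657, 569.9 and 326 CPM in the E11.5 libraries and miR-155-5p 173, 421 and 56.4 CPM in the E8.5 libraries and 11.4, 101 and 206 CPM in the E11.5 libraries.

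**Figure D4:**
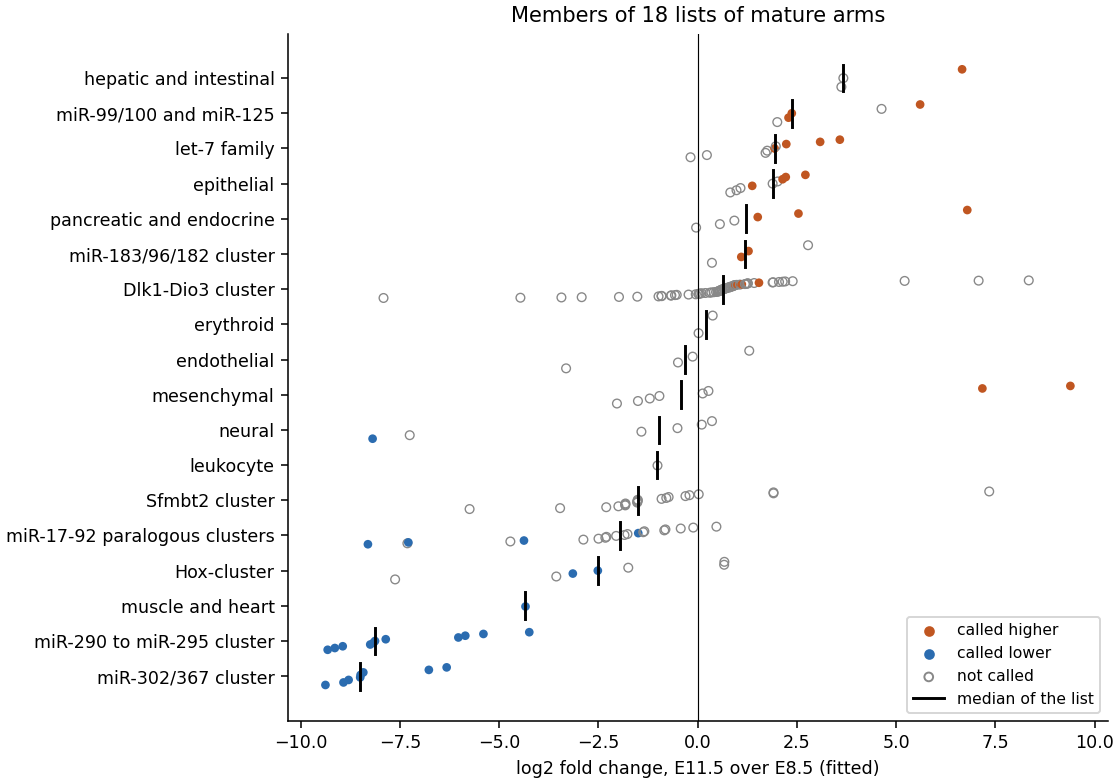
Fitted log2 fold changes (x axis, E11.5 over E8.5) of the tested arms of 18 lists, with filled points for called arms, open points for the rest and black bars for list medians. Vertical offsets within a list carry no value. The 8 arms of the miR-302 cluster and the 11 of miR-290 to miR-295 are all called and lie left of -4, and no list holds called arms in both directions.

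Entries outside the lists completed the calls. miR-1224-5p, in an intron of Vwa5b2 (chromosome 16, 20604452 to 20604536, plus strand), had 1, 2 and 0 counts at E8.5 and 334, 402 and 156 at E11.5 (log2 fold change 7.51, SE 1.68, adjusted p = 0.00322), a ratio of 208 with a 95% counting interval of 71.1 to 1013. miR-465a-3p, miR-465b-3p and miR-465c-3p, of a chromosome X cluster (66825955 to 66839125, minus strand), had the same sequence and the same counts in all libraries, so they are 1 measurement and uncertain as to gene. They held 83, 33 and 472 counts at E8.5 and 1 in all at E11.5. miR-362-5p, in an intron of Clcn5 on chromosome X, had 91, 107 and 94 counts at E8.5 and 3 in all at E11.5. The calls of the miR-465 arms were lost without E8.5 replicate 3 and each of the E11.5 libraries, and that of miR-362-5p without E8.5 replicates 2 and 3, E9.5 replicate 1 and E11.5 replicates 1 and 2 (adjusted p = 0.052 to 0.113). The precursor entry mir-6240, which lies between genes on chromosome 5 (114851948 to 114852064, plus strand), had 4133, 4164 and 2572 CPM in the E8.5 libraries and 1062, 772 and 1769 CPM in the E11.5 libraries (log2 fold change -1.59, SE 0.48, adjusted p = 0.0317), and lost its call without any of the 6 libraries but E11.5 replicate 3 (adjusted p = 0.054 to 0.114). At E8.5, E9.5, E10.5 and E11.5 mir-6240 averaged 3623, 42097, 8072 and 1201 CPM, with the highest mean at E9.5. miR-1224-5p, the miR-465 arms and miR-362-5p were named after their values were seen.

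Called arms of neighbouring miRNA genes shared a direction. Of 39 clusters of miRNA genes less than 10000 bases apart on 1 strand, 19 held a called arm and 12 held 2 or more, among them the miR-465 cluster with its 1 measurement, and none held called arms in both directions. miR-92a-3p, miR-24-3p, let-7c-5p and let-7f-5p have genes in 2 clusters and were counted in both. In 1 cluster of each such pair the shared arm was the only call. How often unrelated arms would share a direction was not tested. Arms of 1 hairpin did so too. Both arms were tested for 87 hairpins and called for 7, each time in the same direction. Those 7 belonged to the miR-302 and miR-290 to miR-295 clusters, where arms near 0 at E11.5 could be called only lower. A single arm was called in 15 hairpins. For miR-293 the 5p arm gave 38.5% to 45.3% of the hairpin's mature counts at E8.5, whereas for miR-302b it gave 0.178% to 1.22%, and for miR-292a 80.6% to 90.5%. At E11.5 too few counts remained for miR-293 and the miR-302b 5p arm to compare arm shares.

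The most abundant arms at each stage overlapped in part. Of the 20 with the highest mean CPM, 9 were the same at E8.5 and E11.5, and of the top 10, 6 were. miR-26a-5p, which many tissues express, was among the 8 most abundant at E8.5 and had 20156, 18024 and 19526 CPM in the E8.5 libraries and 19829.5, 26689.6 and 24125 CPM in the E11.5 libraries (log2 fold change 0.29, adjusted p = 0.673), so no difference was shown. The arms that left the top 10 were miR-10a-5p, miR-10b-5p, miR-1a-3p and miR-302b-3p. Those that entered it were miR-7a-5p, miR-122-5p and miR-409-3p, described above, and miR-30d-5p, which was not called. The 10 most abundant mature entries took 45.7% ± 1.57 of counts at E8.5 and 45.0% ± 1.69 at E11.5 (SD, n = 3 each, exact permutation test, two-sided p = 0.7). Precursor entries took 10.52% ± 0.0835 at E8.5 and 10.27% ± 0.0551 at E11.5 (exact permutation test, two-sided p = 0.1, the smallest that 3 against 3 can give), and without mir-6236 and mir-6240 this difference turned to 8.92% ± 0.439 and 9.60% ± 0.285 (exact p = 0.2).

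The stages between are given as a description, with 3 libraries each. miR-302b-3p averaged 28691, 4244, 696 and 262 CPM at E8.5, E9.5, E10.5 and E11.5. In CPM most of this difference lay between E8.5 and E9.5. On the log2 scale a large part of it came after E9.5, among the Pdx1-Cre libraries. miR-10a-5p averaged 20357, 4543, 1753 and 3563 CPM. In CPM miR-292a-5p declined over a longer time, with 10832, 5007, 428 and 187 CPM, and miR-92a-3p took 1 step, with 229861, 70592, 75590.4 and 81455 CPM. miR-122-5p averaged 516, 64756, 91478 and 52144 CPM and miR-7a-5p 7179, 25212, 55369 and 41701 CPM, both with the highest mean at E10.5. The E10.5 libraries overlapped those of E9.5 for miR-122-5p and those of E11.5 for miR-7a-5p. The let-7 arms took different courses. let-7e-5p averaged 1239.8, 6080.4, 5996 and 14831 CPM, while let-7a-5p averaged 2678, 23925, 5179 and 12579 CPM with a wide spread at E9.5 (SD 15054). The E9.5 libraries were much the smallest of the series, with 53996 to 80075 counts. The change of Cre driver and dissected region fell between E8.5 and E9.5, so the step there cannot be told apart from it.

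**Figure D5:**
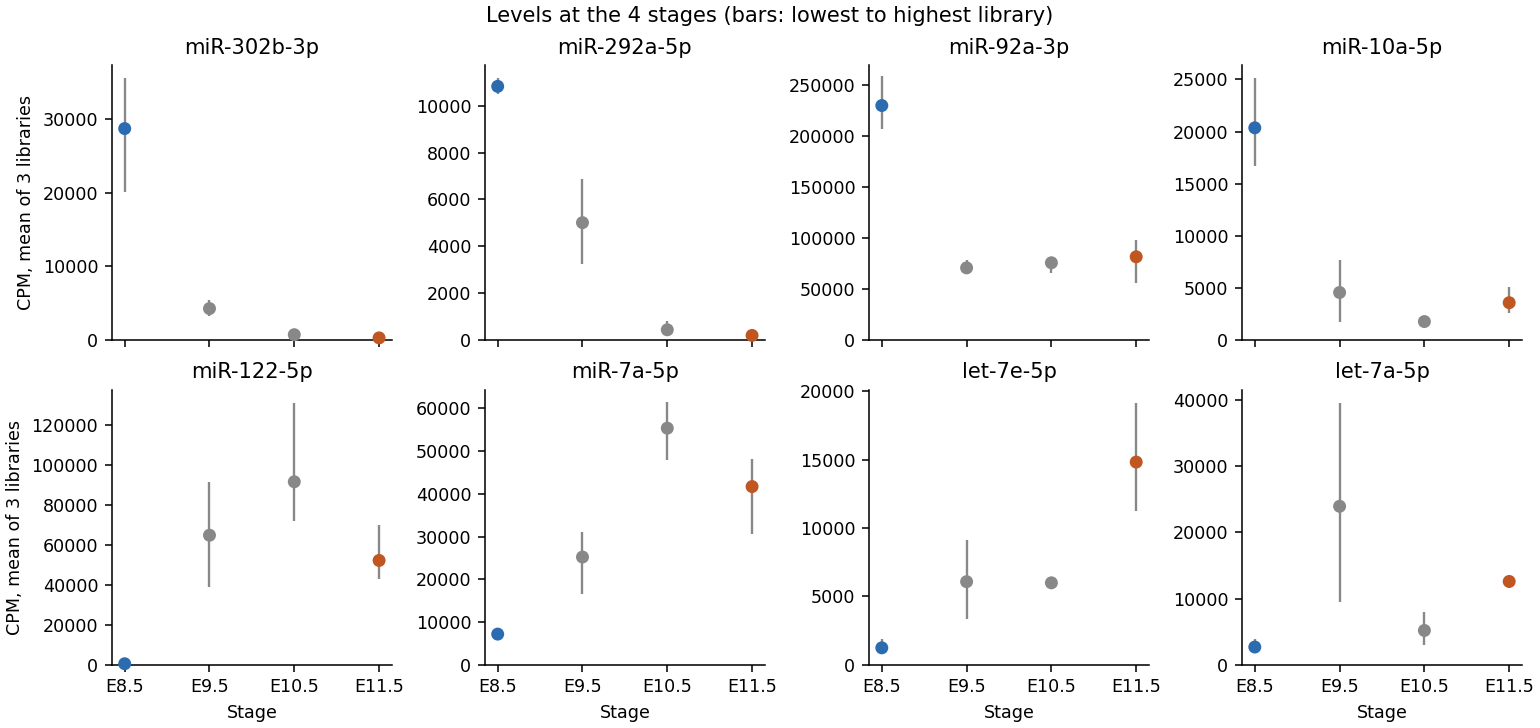
Mean CPM of 3 libraries (y axis, from 0 in each panel) at the 4 stages for 8 arms, with bars from the lowest to the highest library, E8.5 in blue and E11.5 in orange. miR-302b-3p, miR-92a-3p and miR-10a-5p drop between E8.5 and E9.5, and let-7a-5p has its widest bar at E9.5. miR-122-5p and miR-7a-5p have their highest mean at E10.5, with bars that overlap those of a neighbouring stage.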

How the data were processed

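Small RNA of 12 libraries of sorted cells, 3 at each of 4 stages, had been sequenced, and the 6 libraries of E8.5 and E11.5 were compared. The authors deposited raw read counts per miRNA entry, made with COMPSRA (STAR alignment to mm10, reads of at least 17 bases), not normalised. Random adapter bases were not used to count molecules, and the longest read kept was 36 bases in E8.5 replicate 1 and 35 in the other 5 libraries.

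Counts as deposited were tested with edgeR 4.0.16 (glmQLFit and glmQLFTest, R 4.3.3) with stage as the factor, all 12 libraries in the fit, TMM factors, filterByExpr (minimum count 10, total 15), prior count 0.125 and Benjamini-Hochberg adjustment. The SE was the log2 fold change divided by the square root of F. Seeds came from RefSeq for 541 of 633 mature arms, and sums per seed were tested beside the other entries (504 features, over which p was adjusted). The fit was also run on simulated data, whose outcome is not given here and on which no statement rests. Shares were percent of the deposited counts' totals, and composition was compared with an exact permutation test (SciPy). Cluster positions were GENCODE miRNA genes on GRCm38.

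Named were up to 15 arms per direction among those called, not overlapping and reaching 1000 CPM, the 8 most abundant per stage, called and most abundant members of 18 lists, and up to 5 precursors per direction. The members and lists were chosen with earlier results of these data known. Alternatives were RLE, library size alone, other filters, DESeq2, limma voom, the 6 libraries alone, a replicate block, leaving out each library or mir-6236 and mir-6240, mature arms alone, and counts divided by the second count level. The libraries are per the study separate embryos.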

Additional observations from a re-analysis of the deposited data

How the results depend on the processing

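No called entry changed direction in any of the alternatives run, and 31 of the 66 were called in each alternative that tested them. Alternatives with a stricter filter or mature arms alone left some of the 66 untested. The calls of miR-205-5p, miR-292a-3p, miR-363-3p, miR-409-3p, miR-429-3p and mir-6240 were lost under RLE scaling. The 66 called entries became 33 with counts under 10 set to 0, 43 with at least 10 counts required in every library (107 entries tested), 147 with limma voom and 106 when the 6 libraries were fitted alone, while DESeq2 gave 94. Leaving out 1 library gave 38 to 80 calls, the fewest without E8.5 replicate 3 and the most without E9.5 replicate 1, and 38 of the 66 were called in all 12 such fits. The 28 called seed families became 66 with limma voom and 44 with the 6 libraries alone, and 21 to 33 when 1 library was left out. The cause was not tested. The difference in precursor share (E11.5 minus E8.5) was -0.25 percentage points, -0.298 to -0.219 with 1 library left out, and turned to 0.682 without mir-6236 and mir-6240. That of the 10 most abundant arms was -0.693, -1.45 to 0.221 with 1 library left out, and was positive without E11.5 replicate 1 (0.221) and without E8.5 replicate 3 (0.213).

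Replicate numbers did not pair the libraries: deviations of same-numbered libraries correlated at 0.0168, 0.112 and 0.0435, and with a replicate block 61 entries and 29 seed families were called, 55 of the former among the 66. After dividing each library by its second count level, 98 entries remained for testing and 60 were called, 36 of them among the 66.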
